A study of Mus musculus with 62 samples.

Results

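The core circadian clock loop is described here through 10 genes, found by their mouse Entrez identifiers in the count tables of 3 tissues and chosen as the known transcriptional core of the clock, of 18821 genes listed in any of the tables. They are the activators Arntl (also called Bmal1), Clock and Npas2, the repressors Per1, Per2, Per3, Cry1 and Cry2, and the nuclear receptors Nr1d1 and Nr1d2 (Rev-erb alpha and beta). All 10 passed the low-count filter in every tissue, as did 12968 of 16206 listed genes in the liver, 14838 of 17653 in the prefrontal cortex and 15118 of 17874 in the striatum.

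The clock is a feedback loop that runs in nearly every cell. ARNTL pairs with CLOCK or NPAS2 and switches on the Per, Cry and Nr1d genes from DNA elements called E-boxes, and the PER and CRY proteins then return to the nucleus and repress that pair. The REV-ERB proteins made from Nr1d1 and Nr1d2 repress Arntl through ROR elements, so Arntl transcripts peak at a different time of day from Nr1d1, Per and Dbp transcripts, and the level of a clock gene in a sample depends on the hour of collection. In the liver the loop follows feeding as well as light and times much of metabolism, while in the brain NPAS2 can stand in for CLOCK.

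RNA sequencing counts came from female C57BL/6 mice, an inbred strain, dosed by mouth with the MARBLES mixture of polychlorinated biphenyls (PCBs), persistent industrial chemicals, at 0.1, 1 or 6 mg/kg, or with vehicle, which the design text gives as 0 mg/kg. The liver had 4 vehicle, 4, 6 and 6 libraries, and the prefrontal cortex and striatum each had 4, 5, 6 and 6 in the same order, 62 in all. The brain regions were tissue punches, and messenger RNA was enriched by poly(A) capture or by depleting ribosomal RNA, the labels leaving the choice unstated. The mice's age, the number of doses, the interval to collection, the hour of collection, the light cycle and the feeding state are not given in the sources used here, so clock phase could not be set against a time axis. No genotype other than the strain was named. Each library carries an animal number, and replicates of a dose are different numbers.

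Library totals ranged from 7381179 to 10203247 counts in the liver, from 8722232 to 12135200 in the prefrontal cortex and from 8283032 to 12019651 in the striatum. No pair of libraries of a group agreed within sampling noise: chi-square divided by its degrees of freedom was at least 2.94. Markers of hepatocytes summed to between 81110 and 178866 CPM, the counts per library scaled to a common total, in the liver, and markers of cortical excitatory and striatal projection neurons were present in the regions labelled for them. The striatal libraries held between 125 and 1716 CPM of the cortical excitatory list, whose range in the cortex was 1410 to 2406. The cortical libraries held between 728 and 2325 CPM of the striatal projection list, which overlapped its range of 2121 to 5281 in the striatum. Liver libraries also differed in GC slope, the rank correlation over genes of transcript GC content with how far a library departs from its tissue mean, from -0.282 to -0.162 in vehicle and from -0.019 to 0.238 at 6 mg/kg, without overlap.

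Promoter windows of the 3 members on which the results turn are shown because clock genes are read through short elements near their starts. They run from 250 bases before to 50 after the annotated start and come from RefSeq on GRCm38.p6 (mm10). They are printed 5′ to 3′ on the gene's strand, with clock elements in capitals. Arntl (the second of its listed windows), Per3 and Per1 (the first of its listed windows) lie at chr7:113207261-113207560 on the plus strand, chr4:151044616-151044915 on the minus strand and chr11:69098699-69098998 on the plus strand.
Arntl: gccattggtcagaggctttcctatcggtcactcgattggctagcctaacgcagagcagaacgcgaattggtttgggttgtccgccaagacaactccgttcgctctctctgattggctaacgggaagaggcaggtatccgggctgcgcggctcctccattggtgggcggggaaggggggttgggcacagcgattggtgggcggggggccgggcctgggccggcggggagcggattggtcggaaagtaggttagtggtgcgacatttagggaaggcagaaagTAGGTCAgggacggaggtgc
Per3: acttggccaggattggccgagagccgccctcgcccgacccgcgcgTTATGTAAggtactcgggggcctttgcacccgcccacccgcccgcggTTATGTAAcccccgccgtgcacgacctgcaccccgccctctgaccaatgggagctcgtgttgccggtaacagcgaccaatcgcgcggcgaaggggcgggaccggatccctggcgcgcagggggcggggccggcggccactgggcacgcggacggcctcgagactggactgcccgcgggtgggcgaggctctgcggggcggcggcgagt
Per1: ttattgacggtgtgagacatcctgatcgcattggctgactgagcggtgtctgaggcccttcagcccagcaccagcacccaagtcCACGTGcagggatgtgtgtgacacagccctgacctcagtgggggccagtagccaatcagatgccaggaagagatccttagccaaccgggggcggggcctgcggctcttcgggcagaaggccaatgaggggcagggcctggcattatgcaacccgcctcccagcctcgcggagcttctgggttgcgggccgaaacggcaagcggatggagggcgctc

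Both strands were searched for the E-box CACGTG, its variant CACGTT, the D-box forms TTATGTAA and TTACGTAA, and the ROR element core TAGGTCA. The Arntl window held 1 ROR core, starting at base 31 after the start, a motif present in 2.61% of 32851 promoter windows of this length. The other listed Arntl window and the other Per1 window held none of the searched letters, so the printed windows of these genes are the ones with a match. The Per3 window held the D-box TTATGTAA in 2 places, 205 and 158 bases before the start, and 0.938% of windows held that motif. The Per1 window held 1 E-box 166 bases before the start, as did 7.15% of windows somewhere. Of the other members, Cry1 held an E-box and a variant, Cry2 and Nr1d1 held a variant E-box (4.69% of windows), and Clock, Npas2 and Nr1d2 held none of the searched letters in 5 windows. In all, 9 of the 10 members had a window, and 6 held any searched motif. A match describes the letters only and does not show that a factor binds there.

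In the liver at 6 mg/kg, 2 of the 10 clock genes passed the test against vehicle, and they moved in opposite directions. Arntl, the obligatory partner of the activating pair, fell 3.93-fold, and Per3, a member of the Per repressor family, rose 4.24-fold. Passing means a Benjamini-Hochberg adjusted p under 0.05 over all genes tested by the quasi-likelihood test of edgeR. Of 12968 liver genes 2.8% passed, with 1.8% higher and 0.995% lower. Ranges of the vehicle and 6 mg/kg libraries did not overlap for Arntl and Per3, as for 6.76% of all liver genes. The median log2 fold change over the 10 members was 0.29, against 0.02 over all genes. In bulk tissue, fewer cells of a type and less RNA per cell cannot be told apart.

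Arntl (chr7:113178471-113314126, Entrez 11865) read 9.88, 7.75, 3.38 and 3.93 CPM in the liver of vehicle animals 3, 4, 7 and 8. The 6 mg/kg libraries ran from 0.678 through a median of 1.44 to 2.91 CPM, and every one lay under every vehicle library. The vehicle mean was 6.23 ± 3.11 CPM (SD, n = 4) and the 6 mg/kg mean 1.56 ± 0.81 CPM (SD, n = 6), which gave a log2 fold change of -1.98 (SE 0.48, adjusted p 0.0333 by edgeR). These levels rest on few reads, between 5 and 30 counts per library at 6 mg/kg and between 32 and 102 in vehicle. At 0.1 mg/kg Arntl read 2.89, 2.52, 0.978 and 4.02 CPM, and at 1 mg/kg 0.601 to 3.85 CPM with a median of 1.29. The group means declined in dose order, but ranges overlapped between each neighbouring pair of doses.

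Clock (Entrez 12753), the histone-acetylating partner of ARNTL, lay under the vehicle mean in all 6 libraries at 6 mg/kg but did not pass. Vehicle libraries read 24, 23.2, 14.1 and 14.3 CPM and 6 mg/kg libraries 8.04 to 16.3 CPM, with a median of 10.6 (log2 fold change -0.76, SE 0.29, edgeR adjusted p 0.122). Vehicle animals 3 and 4 stood above animals 7 and 8, as for Arntl, and the 2 groups overlapped. Npas2 (Entrez 18143), the alternative partner, was near the floor of detection in the liver, with 1 to 25 counts per library, and its log2 fold change was -0.38 (SE 0.58, adjusted p 0.722 by edgeR).

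Among the repressors, Per3 (chr4:150997018-151044707, Entrez 18628) read 5.23, 4.4, 21.7 and 17.9 CPM in the liver of vehicle animals 3, 4, 7 and 8. The 6 mg/kg libraries ran from 28 through a median of 53.7 to 71.8 CPM, all above the highest vehicle library. Its vehicle mean was 12.3 ± 8.81 CPM (SD, n = 4) and its 6 mg/kg mean 52.1 ± 16.8 CPM (SD, n = 6), which gave a log2 fold change of 2.09 (SE 0.39, adjusted p 0.0134 by edgeR). Vehicle animals 3 and 4, highest for Arntl, were lowest for Per3, and animals 7 and 8 the reverse.

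Per2 (Entrez 18627), a core Per repressor, missed the threshold in the liver at 6 mg/kg. Its vehicle libraries read 12.9, 11.7, 42.4 and 21.8 CPM, and its 6 mg/kg libraries 15.6 to 116 CPM with a median of 78.5, which gave a log2 fold change of 1.64 (SE 0.47, adjusted p 0.0593 by edgeR). The 6 mg/kg library of animal 55 was the lowest of its group and within the vehicle range. Per2 passed without that animal (log2 fold change 1.85, edgeR adjusted p 0.0158), without animal 56 (1.79, 0.0269), without vehicle animal 7 (2.17, 0.0474) and by DESeq2 (1.65, 0.00529). It missed the threshold further without vehicle animal 3 (1.45, edgeR adjusted p 0.184), without vehicle animal 4 (1.43, 0.192), with the compared groups alone (1.65, 0.115) and with the GC slope as a covariate (1.26, 0.542). Per1 (Entrez 18626), the light- and hormone-inducible Per gene, ranged from 16.1 to 61.2 CPM at 6 mg/kg around vehicle values of 20.2 to 28.4 CPM (log2 fold change 0.56, SE 0.33, edgeR adjusted p 0.297).

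Cry1 (Entrez 12952), the strongest repressor of the pair and one that peaks late, read 10.7, 10.5, 7.39 and 5.48 CPM in vehicle liver and 2.43 to 7.38 CPM at 6 mg/kg, with a median of 3.68. All 6 libraries lay under the vehicle mean, but the ranges overlapped and the log2 fold change of -0.99 did not pass (SE 0.29, adjusted p 0.0638 by edgeR). DESeq2 passed it (-0.98, adjusted p 0.0280). The log2 fold change of Cry2 (Entrez 12953), the other cryptochrome repressor, was 0.39 (SE 0.26, adjusted p 0.364 by edgeR). The estimate for Cry1 had the sign of those for Arntl and Clock, and the Per genes had the opposite sign.

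The Rev-erb genes did not pass. Nr1d1 (Entrez 217166), which represses Arntl, averaged 138 ± 37.8 CPM in vehicle liver (SD, n = 4) and, at 6 mg/kg, 158 ± 40.6 CPM (SD, n = 6), which gave a log2 fold change of 0.19 (SE 0.20, adjusted p 0.588 by edgeR). Nr1d2 (Entrez 353187), its paralog, averaged 51.3 ± 9.77 and 70.7 ± 24.9 CPM, a log2 fold change of 0.46 (SE 0.25, adjusted p 0.263 by edgeR). Nr1d1 exons overlap those of Thra on the opposite strand over 263 bases, or 8.55% of its exonic bases, and strand use in counting is not given in the sources used here, so reads there cannot be assigned to either gene.

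**Figure D1:**
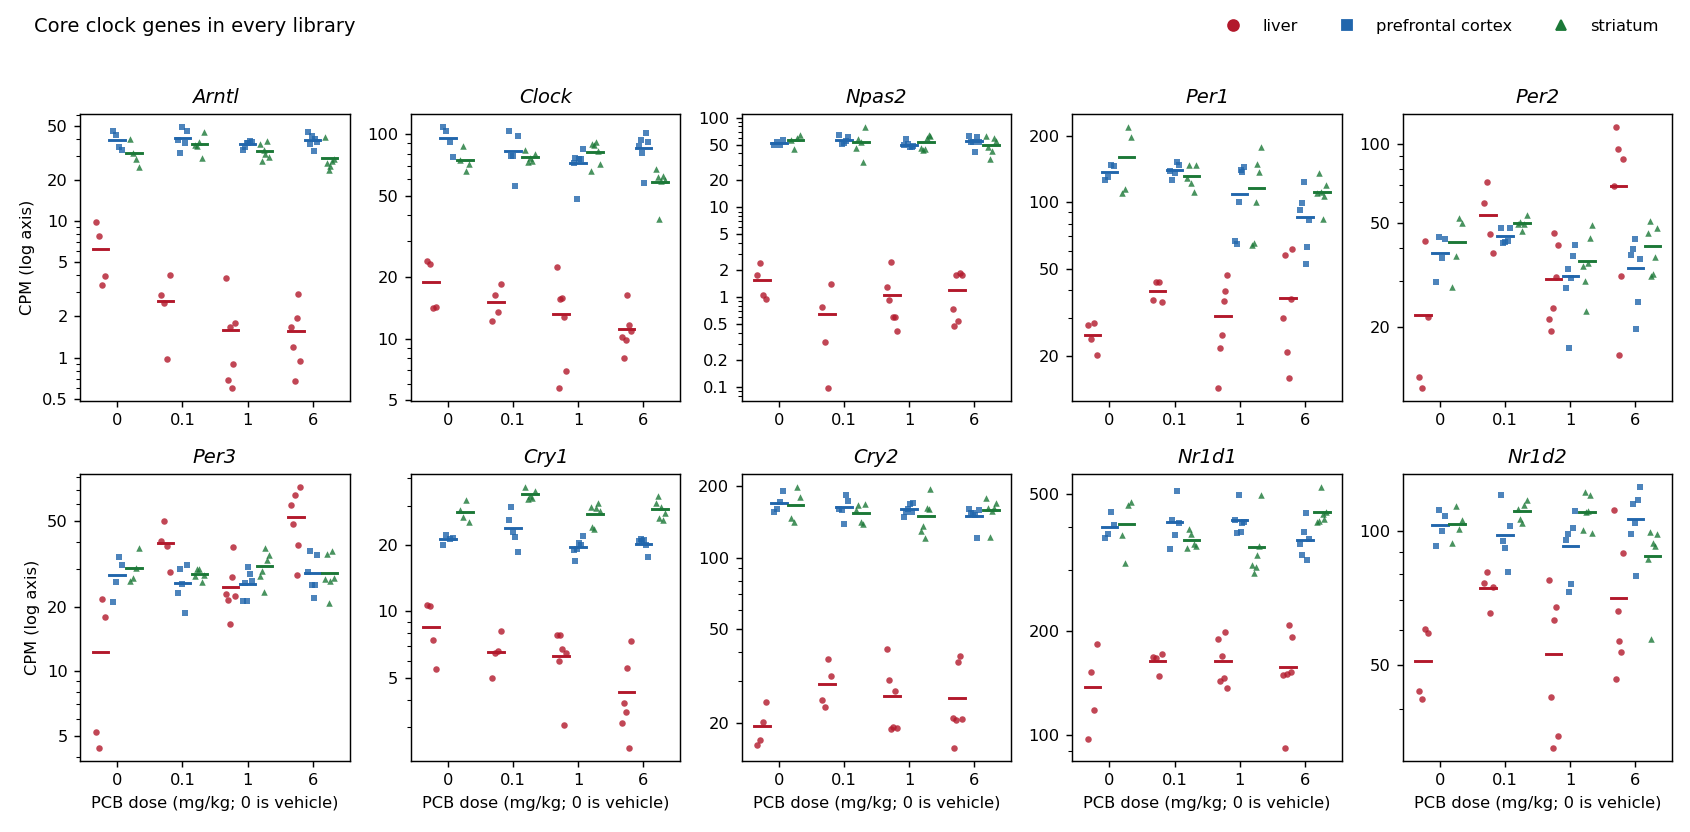
CPM of each clock gene (log axis) in every library by PCB dose in mg/kg, with 1 point per library, horizontal bars at the group mean, and tissues by colour and marker; values were scaled within each tissue separately. In the liver, Arntl declines from 6.23 CPM in vehicle to 1.56 CPM at 6 mg/kg while Per3 rises from 12.3 to 52.1 CPM, and the brain regions stay within narrower ranges.

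The liver calls depended on single animals. Without vehicle animal 3 neither gene passed, with a log2 fold change of -1.67 for Arntl (edgeR adjusted p 0.141) and 1.83 for Per3 (0.0656). Without vehicle animal 4 the values were -1.86 (0.127) and 1.80 (0.0586). Arntl also missed the threshold without 6 mg/kg animal 52 (edgeR adjusted p 0.0658), 53 (0.0568), 54 (0.0655) or 58 (0.0896), at log2 fold changes between -1.99 and -1.83. With the libraries' GC slopes entered as a covariate, an alternative chosen after seeing the data, Arntl had a log2 fold change of -1.29 (edgeR adjusted p 0.505) and Per3 of 2.17 (0.234).

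Markers of macrophages and of lymphocytes moved with the liver groups. The 4 macrophage and microglia markers were all higher on average at 6 mg/kg, C1qa without overlap, and their sum ran from 65.0 to 82.8 CPM in vehicle and from 88.3 to 167 CPM at 6 mg/kg. Of 3 T and B cell markers 2 were higher, and their sum ran from 1.06 to 1.55 and from 1.92 to 6.80 CPM. The red cell markers Hba-a1 and Alas2 were lower on average at 6 mg/kg. Their sum ran from 42.6 to 2577 CPM in vehicle and from 67.1 to 216 CPM at 6 mg/kg, with overlap. Cx3cr1 was at 0 in 2 liver libraries, P2ry12 in 1, Cd3e in 2 and Ms4a1 in 3. The part of these cells in the Arntl and Per3 values was not tested.

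Genes that the loop drives gave a wider view of the same livers. Of 21 accessory clock genes, that is clock outputs, kinases, ubiquitin ligases and secondary regulators, 20 were tested in the liver and 5 rose at 6 mg/kg while none fell, where 2.8% of all genes passed. An unadjusted edgeR p under 0.05 was reached by 9 of the 20 and by 5 of the 10 members, against 24.2% of all genes. The list's median log2 fold change was 0.49, against 0.02 for all genes. Dbp, the PAR bZIP output gene that ARNTL and CLOCK drive most directly, read 41.4, 44.6, 131 and 181 CPM in vehicle animals 3, 4, 7 and 8 and 278 to 368 CPM at 6 mg/kg. Its log2 fold change was 1.68 (SE 0.32, adjusted p 0.0134 by edgeR), and the groups did not overlap.

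Tef, a second PAR bZIP factor that binds D-boxes, rose, with means of 91.9 ± 29.2 CPM in vehicle (SD, n = 4) and 246 ± 80.7 CPM with the dose (SD, n = 6), or a log2 fold change of 1.42 (edgeR adjusted p 0.0130). Usp2, a clock-driven deubiquitinase, had a log2 fold change of 1.88 (edgeR adjusted p 0.0134), and Ciart, a repressor of the ARNTL pair, of 2.88 (edgeR adjusted p 0.0248). Bhlhe41, an E-box repressor, had a log2 fold change of 2.53 (edgeR adjusted p 0.0494), from a level of 0.265 ± 0.39 CPM in vehicle that included a library at 0, so the size of this change depends on the prior count. Usp2 was also the accessory gene that passed at 0.1 mg/kg, with a log2 fold change of 2.32 (edgeR adjusted p 0.0387), a call that held in 2 of 8 fits without 1 library.

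The accessory calls at 6 mg/kg also turned on single animals. None of the 5 passed without vehicle animal 3 or without vehicle animal 4. With the GC slope as a covariate none passed either (edgeR adjusted p 0.244 to 0.478), and the log2 fold changes were 1.67 for Dbp, 1.38 for Tef, 2.26 for Bhlhe41, 1.28 for Usp2 and 1.78 for Ciart. Of 10 fits without 1 library, Dbp, Tef and Usp2 each passed in 8, Ciart in 6 and Bhlhe41 in 4. With the compared groups alone only Usp2 of the 5 passed (edgeR adjusted p 0.0206).

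At 1 and 0.1 mg/kg no clock gene passed in the liver. No gene of 12968 (0%) passed at 1 mg/kg, and 2 (0.0154%) passed at 0.1 mg/kg, where 2 and 4 of the 10 members had an unadjusted edgeR p under 0.05, against 8.44% and 4.10% of all genes. All 3 doses were compared with the same 4 vehicle libraries, so their values are given side by side only. Arntl had log2 fold changes of -1.26, -1.97 and -1.98 at 0.1, 1 and 6 mg/kg, with edgeR adjusted p of 0.994, 0.306 and 0.0333. Per3 had 1.68, 1.02 and 2.09, with edgeR adjusted p of 0.425, 0.543 and 0.0134.

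At 0.1 mg/kg the liver Per3 libraries read 40.3, 49.9, 38.4 and 29 CPM, above every vehicle library. Per1 (35.4 to 43.6 against 20.2 to 28.4 CPM) and Nr1d2 (65.7 to 81.0 against 42 to 60.4 CPM) also had no overlap with vehicle at that dose, as had 4.13% of all liver genes. None of the 3 passed, the smallest edgeR adjusted p being 0.425, whereas DESeq2 passed Per3 (log2 fold change 1.68, adjusted p 0.0281). At 1 mg/kg no member was free of overlap, against 1.59% of all genes.

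With 0.1 mg/kg in the role of the reference, no member passed in the liver (0.0386% of genes did), and Arntl differed by a log2 of -0.72 (SE 0.50, adjusted p 0.567 by edgeR) and Per3 by 0.40 (SE 0.36, adjusted p 0.667 by edgeR). Cry1 alone had an unadjusted edgeR p under 0.05, at a log2 difference of -0.61 (edgeR adjusted p 0.390). As a slope over dose rank, Arntl fell by 0.66 log2 units per dose step (SE 0.15, adjusted p 0.0213 by edgeR) and Per3 rose by 0.51 (SE 0.15, adjusted p 0.0486 by edgeR), 2 of 10 members against 4.81% of all genes. Cry1 had a slope of -0.30 (edgeR adjusted p 0.0528), and it passed by DESeq2 (adjusted p 0.0240). Over mg/kg in place of rank neither Arntl nor Per3 passed (edgeR adjusted p 0.135 and 0.0844). Neither passed without vehicle animal 3, vehicle animal 4 or 6 mg/kg animal 58, and of 20 fits without 1 library Arntl passed in 17 and Per3 in 7. With the GC slope as a covariate neither passed either. Of the 20 accessory genes tested, 2 rose over dose rank and none fell, namely the outputs Tef (slope 0.36, edgeR adjusted p 0.0382) and Dbp (slope 0.44, edgeR adjusted p 0.0457). Of 20 fits without 1 library Tef passed in 12 and Dbp in 8, and neither passed over mg/kg (edgeR adjusted p 0.0989 and 0.264) or with the GC slope (0.372 and 0.389).

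**Figure D2:**
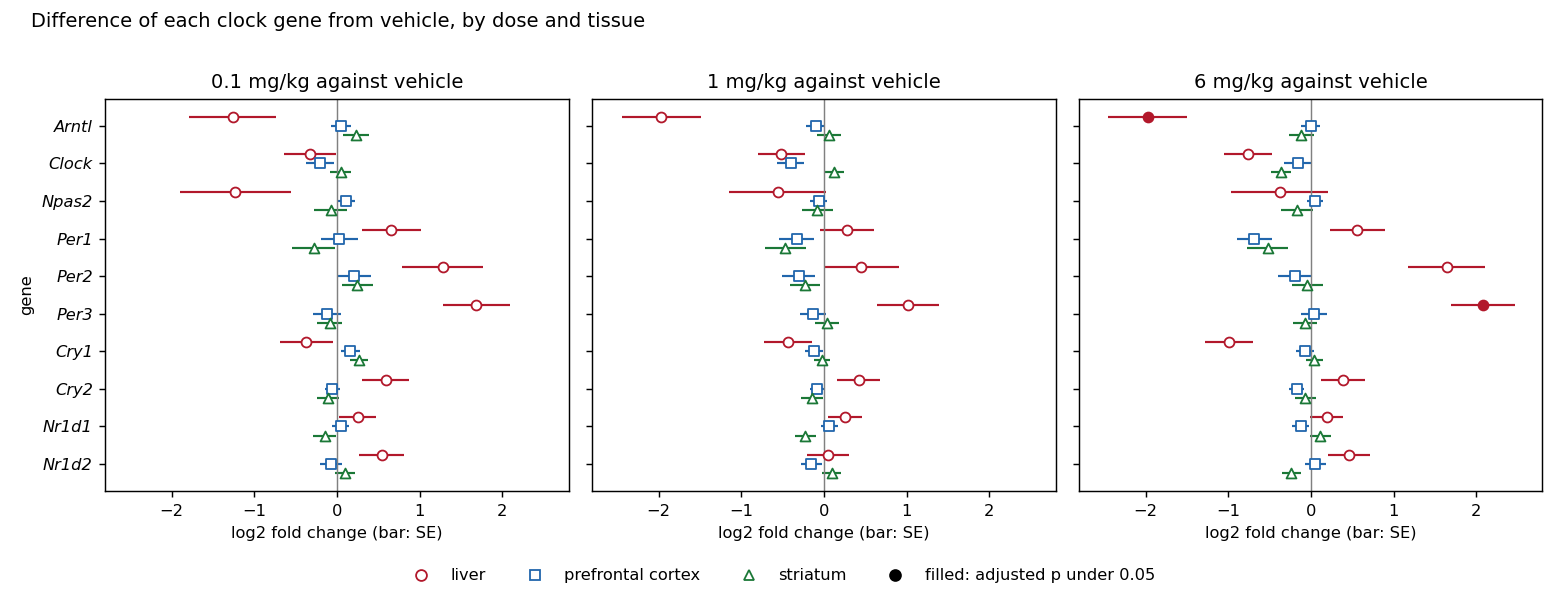
Log2 fold change of each clock gene against vehicle (horizontal axis) at 0.1, 1 and 6 mg/kg in the liver, prefrontal cortex and striatum, with bars of 1 standard error and filled markers where the edgeR adjusted p was under 0.05. The filled markers are liver Arntl at -1.98 and liver Per3 at 2.09, both at 6 mg/kg.

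In the prefrontal cortex, the region of executive control, no clock gene passed at any dose, and 0% of 14838 genes passed against vehicle at 6, 1 or 0.1 mg/kg. At 6 mg/kg 1 member had an unadjusted edgeR p under 0.05, against 9.27% of all genes. That gene was Per1, which read 127, 130, 147 and 146 CPM in vehicle animals 3, 4, 7 and 8 and from 52.5 through a median of 87.7 to 124 CPM at 6 mg/kg. All 6 dosed libraries lay below all 4 vehicle libraries, as for 1.92% of all genes in that direction (3.11% in either direction), but the log2 fold change of -0.68 did not pass (SE 0.21, adjusted p 0.344 by edgeR).

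Some marker lists moved with these cortical groups. Oligodendrocyte markers were higher on average at 6 mg/kg in 4 of 4, with sums of 2656 to 3150 against 1959 to 2939 CPM, and striatal projection markers in 6 of 6, with sums of 1241 to 2123 against 898 to 2325 CPM. None of these markers was at 0, and the ranges overlapped. The red cell markers Hba-a1 and Alas2 were lower on average, with sums of 7.94 to 63.8 against 31.0 to 474 CPM. Alas2 was at 0 in 1 library. Cortical excitatory markers were higher on average in only 2 of 6, with sums of 1410 to 2027 against 1854 to 2303 CPM. The part of these cells in the Per1 values was not tested.

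At 1 mg/kg the cortical Per1 libraries read 67.1, 64.8, 99.9, 141, 138 and 145 CPM, of which the last 3 lay within the vehicle range. Against 0.1 mg/kg, whose libraries read 126 to 152 CPM, the 6 mg/kg libraries again lay below without overlap (as for 0.842% of genes) and had a log2 difference of -0.71 (edgeR adjusted p 0.169, with 0.108% of genes passing), and DESeq2 gave an adjusted p of 0.0475. The slope over dose rank was -0.25 (edgeR adjusted p 0.164, with 0.0202% of genes passing), and DESeq2 gave 0.0380.

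Cortical Arntl read 45.4, 42.6, 34.9 and 33.1 CPM in vehicle and 32.6 to 44.5 CPM at 6 mg/kg, with a median of 39.0 (edgeR adjusted p 0.994). Per3 averaged 28.1 ± 5.87 CPM (SD, n = 4) and 28.7 ± 5.70 CPM (SD, n = 6), for a log2 fold change of 0.04 (SE 0.16). The other members ran between log2 fold changes of -0.19 (Per2) and 0.05 (Npas2 and Nr1d2), and each overlapped vehicle.

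In the striatum, the input stage of the basal ganglia, no clock gene passed and 0% of 15118 genes passed against vehicle at any dose. At 6 mg/kg 3 members had an unadjusted edgeR p under 0.05, against 15.7% of all genes, and all were lower. Clock read 74.6, 87.8, 66.2 and 71.0 CPM in vehicle animals 3, 4, 7 and 8 and 38.5 to 67.6 CPM at 6 mg/kg, with a median of 60.5 (log2 fold change -0.37, SE 0.12, edgeR adjusted p 0.211). The others were Per1 (log2 fold change -0.52, edgeR adjusted p 0.312) and Nr1d2 (-0.24, edgeR adjusted p 0.317). Ranges of each overlapped vehicle, while those of 3.58% of all genes did not. At 0.1 mg/kg Cry1 alone did not overlap vehicle, at 32.2 to 36.3 against 25.2 to 31.8 CPM, as for 1.31% of all genes, and it did not pass (log2 fold change 0.27, edgeR adjusted p 1).

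Against 0.1 mg/kg, striatal Clock, Nr1d1 and Nr1d2 at 6 mg/kg did not overlap, as for 7% of all genes, while 2.91% of genes passed and no member did. Clock missed the threshold at a log2 difference of -0.41 (SE 0.12, adjusted p 0.0525 by edgeR), and Nr1d2 at -0.33 (SE 0.11, adjusted p 0.0791 by edgeR). DESeq2 gave these adjusted p of 0.0168 and 0.0365, so the call on both depended on the tool. Nr1d1 was higher by 0.27 (SE 0.12, adjusted p 0.200 by edgeR). Of the accessory genes, Dbp rose by a log2 difference of 0.54 (SE 0.15, adjusted p 0.0461 by edgeR), from 146 ± 15.5 CPM at 0.1 mg/kg (SD, n = 5) to 213 ± 42.9 CPM (SD, n = 6). That call held in 1 of 11 fits without 1 library, the one without 6 mg/kg animal 53, and was lost with the GC slope as a covariate (log2 difference 0.36, edgeR adjusted p 0.581).

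Cell type markers and the GC slope moved with the striatal groups. Pan-neuronal markers were lower at 6 mg/kg than in vehicle in 3 of 3 cases, 1 without overlap, with sums of 1986 to 2405 against 2341 to 2883 CPM. Oligodendrocyte markers were higher in 4 of 4, with sums of 5715 to 8115 against 3780 to 5763 CPM, and none was at 0. Cortical excitatory markers were lower on average in 6 of 6, with sums of 125 to 495 against 146 to 1171 CPM, and striatal projection markers higher in 5 of 6, with sums of 3024 to 5281 against 2271 to 5150 CPM. Choroid plexus markers were higher on average in 4 of 4, with sums of 24.6 to 182 against 30.8 to 83.3 CPM. The red cell markers Hba-a1 and Alas2 were lower on average, with sums of 38.9 to 120 against 56.6 to 460 CPM. The part of these cells in the Clock, Per1 and Nr1d2 values was not tested. The GC slope ran from -0.324 to -0.0274 at 0.1 mg/kg and from 0.291 to 0.432 at 6 mg/kg. With it as a covariate, the log2 difference of Clock against 0.1 mg/kg was -0.15 (edgeR adjusted p 0.725). Within dose groups Clock followed the GC slope in both brain regions, with r of -0.582 in the striatum and -0.817 in the prefrontal cortex (permutation p 0.00048 and 6e-05, adjusted 0.0036 and 0.0018 over 30 relations). Spearman's rho was -0.762 and -0.794, and r without the 2 farthest libraries was -0.523 and -0.745. Nr1d1 followed it in the other direction, with r of 0.856 and 0.806 (rho 0.735 and 0.718, permutation p 0.0015 and 0.00017, adjusted 0.009 and 0.00255, and 0.693 and 0.711 without the 2 farthest). In the cortex Nr1d2 had r of -0.730 (rho -0.736, permutation p 0.00038, adjusted 0.0036, and -0.591 without the 2 farthest). The other 25 relations, all 10 of the liver among them, did not pass.

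The difference between 6 mg/kg and vehicle was unlike in liver and prefrontal cortex for 2 clock genes by edgeR. With the hour of collection not given, dose and hour cannot be told apart in these differences. The tissue and dose interaction for liver against prefrontal cortex was -1.98 for Arntl (log2, SE 0.40, adjusted p 0.0317 by edgeR) and 2.04 for Per3 (SE 0.47, adjusted p 0.0432 by edgeR), where 0.899% of 14351 genes passed. Per1, Per2 and Cry1 had interactions of 1.22, 1.82 and -0.94 that did not pass (edgeR adjusted p 0.114, 0.107 and 0.116), while all 3 passed by DESeq2 (adjusted p 0.0459, 0.0357 and 0.0444). Blocking on animal number gave -1.93 (edgeR adjusted p 0.0975) and 2.25 (0.0527), neither of which passed. Without any 1 of vehicle animals 3, 4, 7 and 8 or of 6 mg/kg animals 52, 54 and 58, neither passed either, and Per3 also missed the threshold without animal 53.

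Of the accessory genes, Tef, Ciart, Bhlhe41, Usp2 and Wee1, a mitotic kinase under clock control, passed the liver and cortex interaction, with values between 1.41 and 2.70. Of 10 fits without 1 animal, Usp2 passed in 7, Bhlhe41 in 4, Wee1 in 3 and Tef and Ciart in 2 each, and none of the 5 passed with animal number as a block. Between liver and striatum no member passed (0.0277% of 14454 genes did). Arntl had -1.86 (SE 0.43, adjusted p 0.141 by edgeR) and Per3 2.14 (SE 0.47, adjusted p 0.139 by edgeR), close in size to the cortex values, while DESeq2 gave adjusted p of 0.0104 and 0.00987. Usp2 and Wee1 passed there, both with an interaction of 1.82, but in only 5 and 2 of 10 fits without 1 animal, and neither passed with the block (edgeR adjusted p 0.0830 and 0.281). For striatum against prefrontal cortex 0% of 15043 genes passed, and no member had an unadjusted edgeR p under 0.05.

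Vehicle levels differed between tissues. In a fit of both tissues together, 6 of 10 members were lower in the liver than in the prefrontal cortex and none was higher, against 46% and 38.9% of all genes (84.9% in either direction). Npas2 was lowest in relative terms, at 2.30 ± 1.01 CPM against 41.1 ± 2.31 CPM (SD, n = 4 each), a log2 difference of -4.12 (edgeR adjusted p 2.75e-10). The others were Cry2 (-2.19), Arntl (-1.69), Per1 (-1.52), Clock (-1.39) and Nr1d1 (-0.60). Per2, Per3, Cry1 and Nr1d2 did not pass, with log2 differences between -0.37 and 0.14.

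Against the striatum 7 members were lower in the liver, namely Arntl, Clock, Npas2, Per1, Cry2, Nr1d1 and Cry1 (-0.71, edgeR adjusted p 0.00509), and none was higher, against 45.6% and 38.1% of all genes (83.7% in either direction). Between the brain regions, Clock was lower in the striatum (log2 -0.43, edgeR adjusted p 0.0198) and Cry1 higher (0.33, edgeR adjusted p 0.0481), where 22.2% of 14514 genes passed. No more than 1 member passed when any animal was left out. With animal number as a replicate block Arntl passed (log2 -0.40, adjusted p 0.0120 by edgeR) and Cry1 did not (0.32, adjusted p 0.0540 by edgeR).

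The accessory genes also differed between tissues. In vehicle liver against prefrontal cortex 19 of 21 passed, 4 higher and 15 lower, against 84.9% of all genes. The ubiquitin ligase subunits Fbxw11 (-2.30) and Btrc (-2.32), which mark PER proteins for degradation, and the PER kinase gene Csnk1e (-2.91) were lower in the liver. Bhlhe41 (-6.52) and Rorb (-7.72), the neural ROR receptor, were lower too, and the size of these depends on the prior count, since Bhlhe41 was near 0 in the liver and Rorb did not pass the count filter there.

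Against the striatum 19 of 21 passed, 6 higher and 13 lower, against 83.7% of all genes. Btrc (-2.35), Bhlhe41 (-7.14), Fbxw11 (-2.08), Csnk1e (-2.74) and Rorb (-6.81) were lower in the liver. Between the brain regions 7 of 21 passed, 2 higher and 5 lower in the striatum, against 22.2% of all genes. Bhlhe40, an E-box repressor, was lower there, at 89.5 ± 19.7 against 177 ± 16.1 CPM (SD, n = 4 each), a log2 difference of -1.06 (edgeR adjusted p 1.57e-04). Rorb (-0.94), Rora (-0.83), Hlf (-0.40) and Wee1 (-0.37) were lower as well, and Bhlhe41 was higher (0.61). Each named call between tissues held without any 1 animal except that of Wee1 between the brain regions, which held in 2 of 4 such fits.

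Spread between libraries is given here for the members and for all genes, with no test between tissues. Over 20 liver libraries, the highest Npas2 value was 25.2 times the lowest (1 to 25 counts), Arntl 16.4 times, Per3 16.3 times and Per2 9.94 times, while Nr1d1 spanned 2.26 times. In the 21 cortical libraries the widest were Per1 at 2.89 and Per2 at 2.88 times, with Arntl at 1.54, and in the striatum Per1 at 3.43 times, with Arntl at 1.89. These spans hold dose differences too. Within dose groups, the median log2 SD over all genes was 0.392 for liver libraries, against 0.224 for cortical and 0.238 for striatal ones, so the median gene too had its widest spread in the liver. Beside that, the log2 SD in the liver was 0.797 for Per2, 0.778 for Npas2, 0.764 for Arntl, 0.634 for Per3 and 0.317 for Nr1d1. Of all liver genes, 90.5% had a smaller SD than Per2, 89.7% than Npas2, 89.2% than Arntl, 81.1% than Per3 and 31.7% than Nr1d1. Spread also depends on level. Among the liver genes nearest to each in level, 99.2% had a smaller SD than Per2 and 95% than Per3. The shares were 81.2% for Arntl, 54.4% for Npas2 and 46.4% for Nr1d1, so Npas2 was ordinary for its level.

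The relation of Arntl to Per3 was followed library by library as the phase profile of each tissue. In the liver, log2 Per3 minus log2 Arntl was -0.89, -0.79, 2.61 and 2.12 in vehicle animals 3, 4, 7 and 8. It ran from 2.78 to 5.01 at 0.1 mg/kg, from 2.51 to 5.09 at 1 mg/kg and from 3.64 to 6.21 at 6 mg/kg. Every 6 mg/kg library thus lay above every vehicle library, and vehicle animals 3 and 4 lay below all the other liver libraries. In the prefrontal cortex the same difference stayed between -1.11 and -0.00442 over all 21 libraries, and in the striatum between -0.66 and 0.58. In the brain, too, vehicle animals 3 and 4 lay below 7 and 8, at -1.11, -0.71, -0.03 and -0.08 in the cortex and -0.60, -0.22, 0.08 and 0.58 in the striatum, for animals 3, 4, 7 and 8. The GC slope split the same brain libraries, at -0.271, -0.345, 0.251 and 0.194 in the cortex and -0.215, -0.410, 0.392 and 0.246 in the striatum, and its part in these differences was not tested. In the liver the slopes of animals 7 and 8 (-0.214 and -0.212) lay between those of animals 3 and 4 (-0.282 and -0.162). Such differences are used within a gene pair across libraries and say nothing of which gene is more abundant.

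For log2 Nr1d1 minus log2 Arntl, the liver vehicle libraries ran from 3.28 to 5.47 and the 6 mg/kg libraries from 5.61 to 7.39, again without overlap. In the cortex the ranges were 3.03 to 3.65 and 3.0 to 3.75, and in the striatum 3.25 to 4.23 and 3.33 to 4.45, with overlap in both. Each difference shares the Arntl values described above and is no separate evidence.

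**Figure D3:**
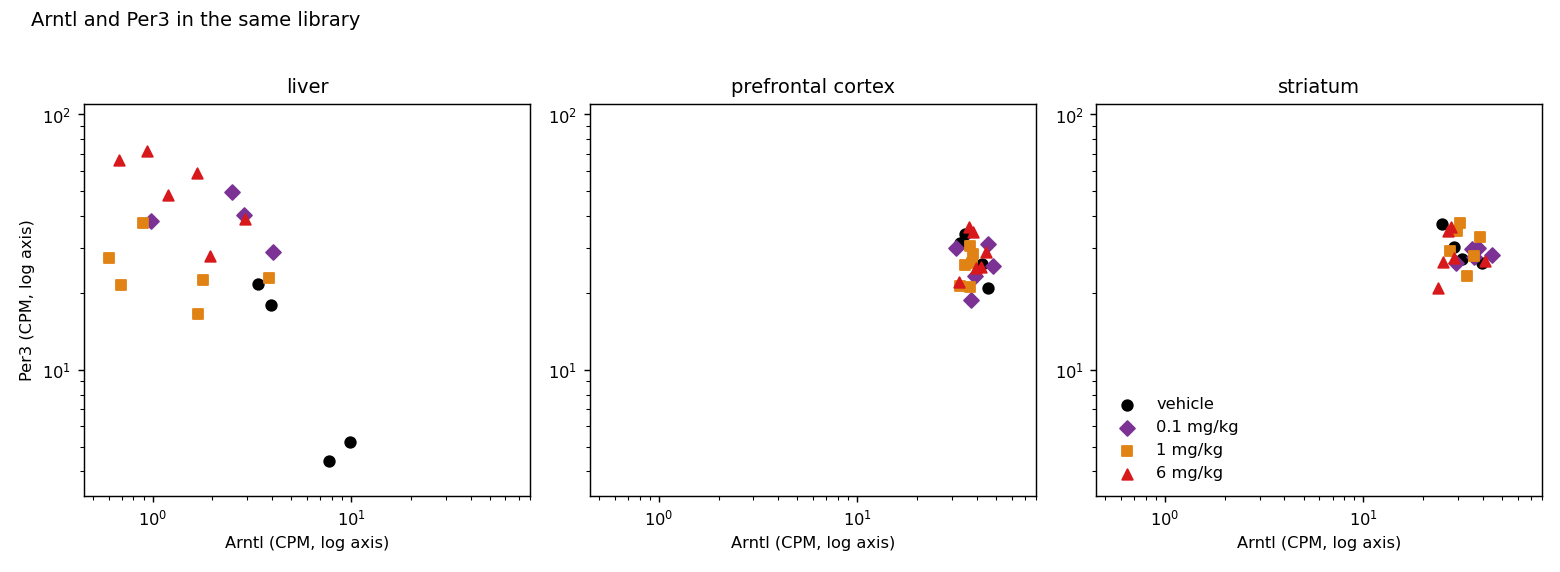
Per3 against Arntl in the same library (both in CPM on log axes, scaled within each tissue), with 1 point per library and doses by colour and marker. Liver libraries run from high Arntl with low Per3 in vehicle animals 3 and 4 to low Arntl with high Per3 at 6 mg/kg, and brain libraries gather at Arntl values between 23.7 and 48.5 CPM.

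Once dose means were removed, no relation of Arntl to another member passed, of 57 relations tested together within and between tissues. In the liver Arntl and Per3 had r of -0.583 (rho -0.657, permutation p 0.0112 and 0.00681, adjusted 0.119 and 0.126), and r was -0.707 without the 2 libraries farthest from the median of Arntl. Arntl and Per2 had -0.514 (rho -0.606, permutation p 0.0206 and 0.00719, adjusted 0.119 and 0.126), and Arntl and Clock 0.513 (rho 0.480, permutation p 0.0477 and 0.0535, adjusted 0.194 and 0.254). All 3 had the same sign in each of the 4 dose groups. In the brain the values for Arntl and Per3 were -0.114 in the cortex and -0.133 in the striatum, and whether the tissues differ in r was not tested. Pooled over doses, the liver values were -0.686 for Per3 and 0.667 for Clock (permutation p adjusted 0.0122 and 0.0180), which include the difference between doses.

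Other pairs are given as a description over 20 or 21 libraries that share depth and GC slope. In the liver, Per2 and Per3 had r of 0.743 and Per2 and Cry2 of -0.612. In the striatum, Per2 and Cry2 had 0.815, and in the prefrontal cortex 0.344. Clock and Nr1d1 had -0.859 in the cortex and -0.620 in the striatum, and Clock and Nr1d2 0.751 and 0.804. These are the 3 genes that followed the GC slope in the cortex.

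**Figure D4:**
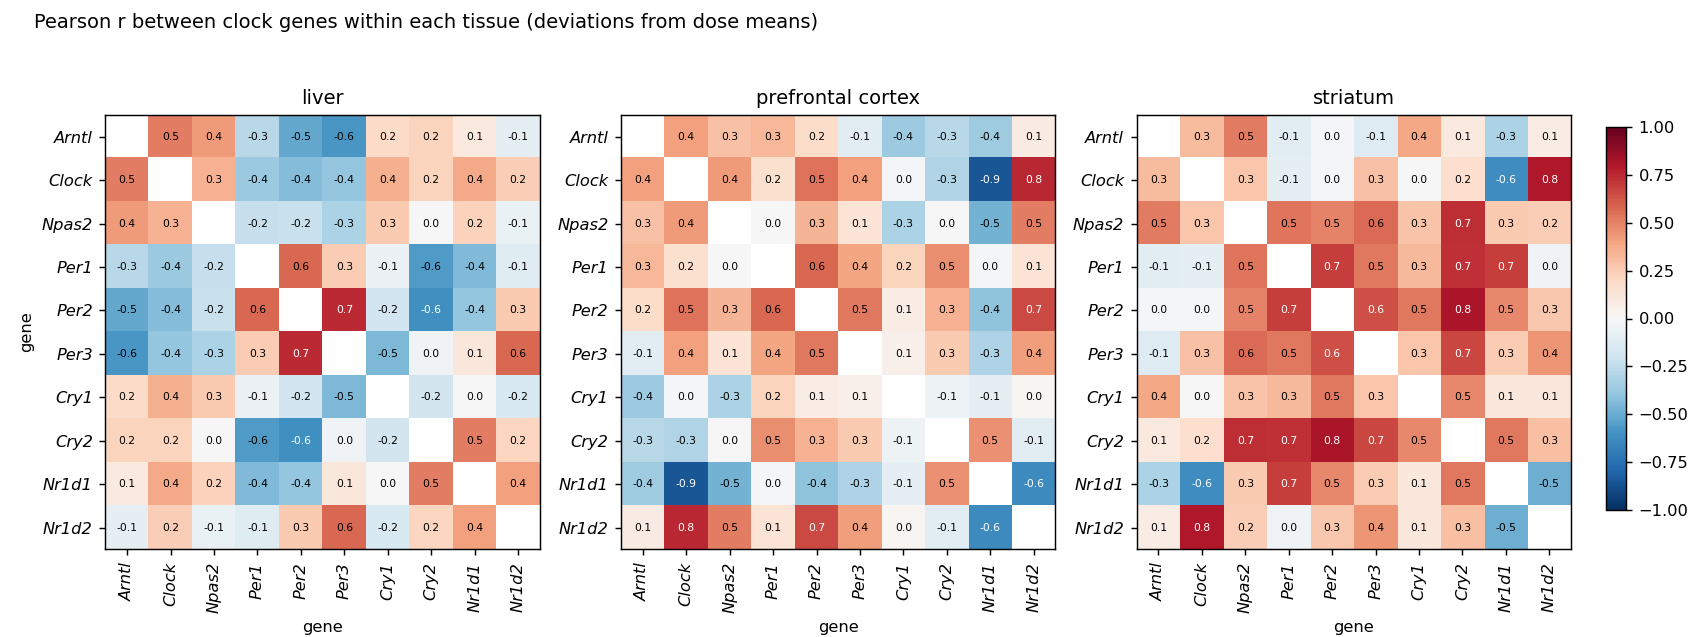
Pearson r between each pair of clock genes in the liver (20 libraries), prefrontal cortex (21) and striatum (21), from log2 CPM deviations from dose means, on a colour scale from -1 to 1. Liver Arntl is negative with the Per genes (-0.583 for Per3), and Clock is negative with Nr1d1 in both brain regions (-0.859 and -0.620).

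Across tissues of the same animal number, which the labels do not state to be the same mouse, Per1 varied together in the 2 brain regions. Its r between striatum and prefrontal cortex was 0.764 over 21 animals (permutation p 0.0002, adjusted 0.0114), with 0.674 after leaving out the 2 animals farthest from the median striatal value. Spearman's rho was 0.729, whose permutation p of 0.00152 did not pass after adjustment (0.0866). The sign was positive in 3 of the 4 dose groups. At 1 mg/kg animals 41 and 42 read 63.8 and 65.6 CPM in the striatum and 67.1 and 64.8 CPM in the cortex, the lowest of the group in both, and animal 50 read 178 and 145 CPM, the highest in both.

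The liver gave r of 0.614 with the striatum and 0.549 with the cortex for Per1 (rho 0.543 and 0.450, permutation p 0.00353 and 0.0651, adjusted 0.101 and 0.248), over 20 animals. In the striatum and cortex pair Per2 had 0.661, Arntl 0.568 and Per3 0.551 (rho 0.536, 0.609 and 0.609), each with an adjusted permutation p of 0.119. Some liver pairs were of like size. With the striatum Per2 had 0.561 and Arntl 0.544 (adjusted permutation p 0.119 each), and with the cortex Per3 had 0.565 (0.124). The r of Per2 between liver and cortex also had an adjusted permutation p of 0.119 (rho 0.477). Liver Arntl with the cortex (0.227) and liver Per3 with the striatum (0.287) were lower (adjusted permutation p 0.607 and 0.552). No relation of Clock, Npas2, Cry1, Cry2, Nr1d1 or Nr1d2 between tissues reached an unadjusted permutation p under 0.05 on r. Animals of a dose may share a cage or an hour of collection, which the labels do not give and which was not tested.

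**Figure D5:**
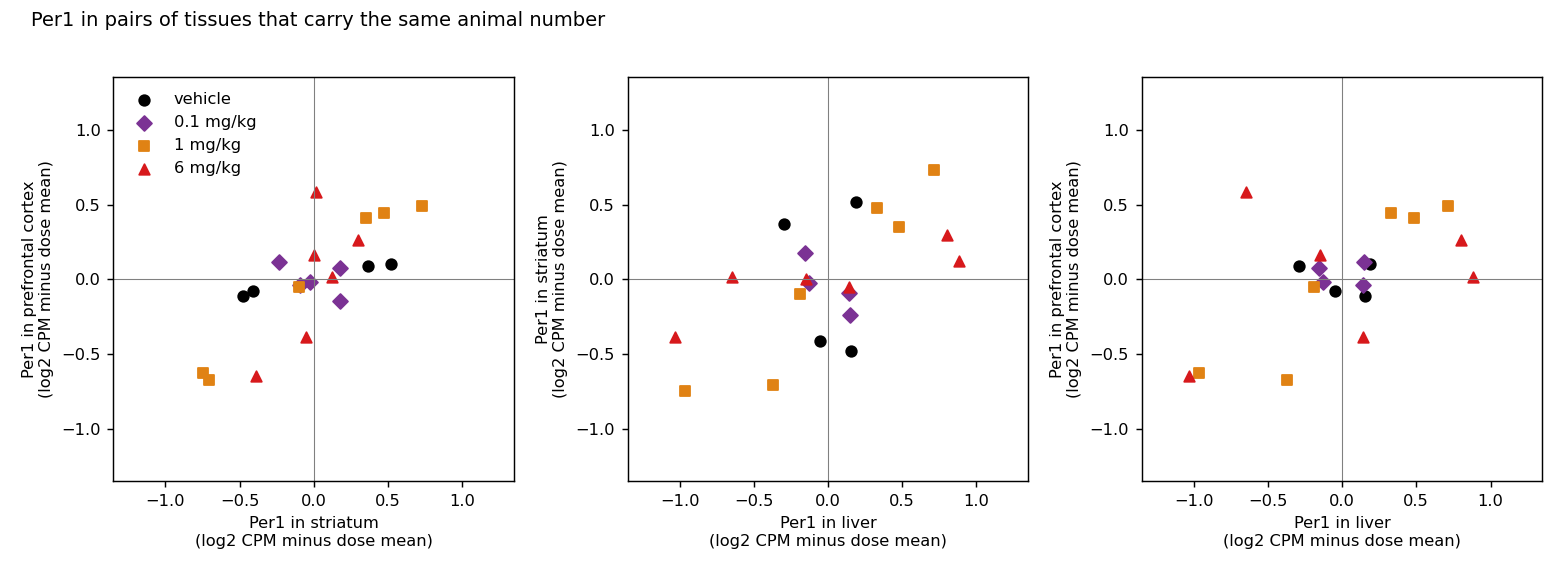
Per1 in 2 tissues of the same animal number, as log2 CPM minus the dose mean on both axes, with 1 point per animal and doses by colour and marker. Striatum and prefrontal cortex rise together (r 0.764), and the liver pairs are looser (r 0.614 with the striatum and 0.549 with the cortex).

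The genes whose variation was most like that of Arntl were taken from those with a mean of at least 5 CPM, by Pearson r of deviations from dose means. Over 20 liver libraries these were Aasdhppt (r 0.794), Cul5, Sgms1, Nf1 and Tab2, and the most opposed were Gtf2a2 (-0.749), Gm36738, Med6, Prss36 and Psmb9, among 9508 genes. Over 21 libraries of the prefrontal cortex they were 4931406C07Rik (0.826), Phf14, Tor1aip2, Zmym6 and 4933427D14Rik, and Lmf1 (-0.780), H2ax, Slc12a4, Fbll1 and Ntn3 at the other end, among 11895 genes. In the striatum, among 12171 genes, they were Azi2 (0.817), Golga4, Eml1, Xrn2 and Rps6kb1, and Nelfb (-0.819), Tuba1b, Cdk18, Sh2d3c and Maged1. None of the 30 is on the accessory clock list, and the 3 tissues had no gene in common among them.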

How the data were processed

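RNA sequencing count tables of 62 libraries from the liver, prefrontal cortex and striatum were used as the authors deposited them: whole-number read counts per gene, by Entrez identifier, with no normalization. Per the submitters' processing notes, FastQC and HISAT2 were used with the mm10 build; how reads were counted, on which annotation and whether by strand is not given in the sources used here. The smallest total of a listed gene was 10 counts in each table, so the deposited tables had been filtered on low totals or hold only such genes.

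Groups were taken from the treatment label, and 0 sample columns were left unmapped. Nothing beyond the animal number says that replicates are separate animals, so p-values measure the spread between these samples. All dose groups of a tissue entered one fit in edgeR 4.0.16 (R 4.3.3) with filterByExpr, TMM scaling and a robust quasi-likelihood test, Benjamini-Hochberg adjusted over all genes at 0.05. Standard errors are the absolute log2 fold change over the square root of F. Log2 CPM used a prior count of 2. Tissues were compared in joint fits of the libraries concerned. Relations between genes or tissues used deviations from dose means and 1e+05 permutations within dose groups. DESeq2 1.42.0, limma 3.58.1, Python 3.11.15, numpy 2.4.6, pandas 2.3.3, scipy 1.17.1, statsmodels 0.14.6 and matplotlib 3.10.9 were also used, and each procedure was tested on simulated data.

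The members and gene lists were chosen with earlier results of these data known. All 10 members are named, accessory genes where they pass (at most 6 per comparison), and in each tissue the 5 genes most like and the 5 most opposed to Arntl. Alternatives were DESeq2, median-ratio scaling, no filter or a mean of at least 10 counts, the compared groups alone, dose in mg/kg, a prior count of 0.5, relations pooled over doses, the animal number as a block and leaving out each library. The values of 1 accessory gene are not reported here. The accessory genes that passed were refitted under the same alternatives. The GC slope as a covariate, and its relation to the members, were chosen after seeing the data. Symbols and promoter windows came from RefSeq tables on GRCm38.p6, and GC content and exon overlap from GENCODE on the same build.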

Additional observations from a re-analysis of the deposited data

Results flagged for a closer look

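In 10 of 120 groups of 4 to 6 libraries, 1 library of a clock gene stood apart from the others by Dixon's 95% criterion, where chance gives about 1 in 20, or 6. In the liver at 1 mg/kg, Arntl read 3.85 CPM in animal 41 against 0.601 to 1.80 CPM in the others. In the prefrontal cortex at 1 mg/kg, animal 45 was low for Clock (48.3 CPM against 71.8 to 84.2) and high for Nr1d1 (496 CPM against 386 to 421). Its GC slope was 0.395, against -0.0851 to 0.204 in the others. In the prefrontal cortex at 6 mg/kg, Cry1 read 17.6 CPM in animal 58 (20 to 21.3 in the others) and Cry2 read 122 CPM in animal 56 (152 to 160 in the others). In the striatum at 6 mg/kg, animal 54 was low for Clock (38.5 CPM against 59.2 to 67.6) and Nr1d2 (57.3 CPM against 86.5 to 99.5) and high for Nr1d1 (522 CPM against 414 to 443). Striatal Arntl read 41.1 CPM in animal 52 at 6 mg/kg (23.7 to 28.6 in the others), and striatal Nr1d1 read 497 CPM in animal 50 at 1 mg/kg (296 to 354 in the others), where its GC slope was 0.281 against -0.570 to -0.178. The GC slope was also the highest of its group in striatal animal 54 (0.432 against 0.291 to 0.426) and the lowest in cortical animal 56 (-0.590 against -0.369 to 0.260) and liver animal 41 (-0.258 against -0.0743 to 0.318). It was the lowest of its group in striatal animal 52 (0.291 against 0.346 to 0.432) and not at either end in cortical animal 58 (-0.369 against -0.590 to 0.260). Its part in these values was not tested.

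By the interaction test of edgeR, liver and prefrontal cortex differed in their change at 6 mg/kg, by -1.98 for Arntl (adjusted p 0.0317) and by 2.04 for Per3 (adjusted p 0.0432), on the log2 scale. With animal number as a block neither passed (edgeR adjusted p 0.0975 and 0.0527), and of 10 fits without 1 animal Arntl passed in 3 and Per3 in 2. On the scale of log2 CPM, at 0.1 mg/kg every liver library and every striatal library lay on opposite sides of their vehicle means for 3 members. Of 11973 genes measured in both tissues 2.76% showed this pattern, and the difference was not tested. On the CPM scale Per3 would be the fourth, with 4 of 4 liver libraries above and 5 of 5 striatal libraries below their vehicle means of 12.3 and 30.2 CPM. The gap in mean log2 change, liver minus striatum, was 0.88 for Per1 (0.66 and -0.22), -0.60 for Cry1 (-0.33 and 0.27) and 0.42 for Nr1d1 (0.29 and -0.13).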

How the results depend on the processing

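Counts are of members passing, out of 10. Where the number of all genes passing is not given beside a count, the count cannot be set against the share of all genes. In the liver at 6 mg/kg 2 passed, with 4 by DESeq2, 0 with the compared groups alone, 0 with the GC slope as a covariate, and 0 to 4 with a library left out (0 without vehicle animal 3 or 4, and 4 without 6 mg/kg animal 55), where 3 to 1302 genes passed in all. Over 16 alternatives the adjusted p ranged from 0.00523 to 0.505 for Arntl and from 7.4e-06 to 0.234 for Per3. At 0.1 mg/kg DESeq2 passed 1, which was Per3. For the liver trend, 2 passed, with 3 by DESeq2, 1 without a filter, 0 over mg/kg and 0 given the GC slope. Leaving out a library passed 0 to 4, where 79 to 1317 genes passed in all. It was 0 without vehicle animal 3 or 4 or 6 mg/kg animal 58, and 4 without 1 mg/kg animal 41 or 6 mg/kg animal 55. In the prefrontal cortex DESeq2 passed 1 for 6 against 0.1 mg/kg and 1 for the trend. In the striatum, for 6 against 0.1 mg/kg, DESeq2 passed 2. Leaving out a library there passed 0 to 2 (2 without 6 mg/kg animal 52), where 0 to 442 genes passed in all. For the striatal trend 0 passed over dose rank and 2 over mg/kg. These were Clock (log2 slope -0.0730 per mg/kg, edgeR adjusted p 0.0138) and Nr1d2 (-0.0525, 0.0303). For the liver and cortex interaction 2 passed, with 5 by DESeq2. With an animal left out 0 to 5 passed (5 without animal 55), where 2 to 762 genes passed in all. For the liver and striatum interaction DESeq2 passed 2. Vehicle levels passed 6 to 6 (liver and cortex) and 6 to 7 (liver and striatum) with an animal left out. For striatum and cortex 2 passed, with 1 without a filter, 1 with median-ratio scaling, 1 by DESeq2, and 0 to 1 with an animal left out. Relations pooled over doses passed 2 within tissues and 2 between them. The cause of these changes was not tested. No passing member value changed sign. Of 3591 member values under an alternative, 62 lost and 33 gained the call, and 127 differed in sign with neither passing, 23 of them with the GC slope. Few counts limit Arntl and Npas2 in the liver.

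With animal number as a replicate block, 0 members passed the liver and cortex interaction (Arntl -1.93, adjusted p 0.0975; Per3 2.25, adjusted p 0.0527). In vehicle striatum against cortex, Arntl gained the call (-0.40, adjusted p 0.0120) and Cry1 lost it (0.32, adjusted p 0.0540). The block changed no other call of edgeR on a member. Over the genes tested in both tissues, samples of the same number had a mean correlation of deviations of 0.113 between striatum and cortex (lowest -0.0906). It was 0.00635 between liver and cortex and 0.0052 between liver and striatum. The main fits between tissues carried no block. These means do not settle that choice for the clock genes, where Per1 had r of 0.764 between striatum and cortex and 0.614 between liver and striatum. Relations between tissues did join libraries by number, and an animal left out of these fits was left out of both tissues. In striatum and cortex 11 of 21 animals correlated best with their own number among animals of the same dose. The same held for 8 of 20 in liver and striatum and for 4 of 20 in liver and cortex.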
